A study of Mus musculus with 13 samples.

Results

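Genes with symbols that start with Kcn encode potassium channels and the subunits that bind to them. By this symbol rule, 93 protein-coding members were found, among 29035 genes measured in isolated heart cells and 29061 measured in ventricles. The level of a member was the sum over its transcripts of at least 200 nucleotides, in FPKM, the number of fragments adjusted for transcript length and library depth. In deposited values, 42 of the 93 members reached 1 FPKM in at least 1 of 13 libraries, and 50 stayed below 1 FPKM in all 13. The other member, Kcns2, had a single transcript that the authors' software marked as having too little data, so it is not analysed here.

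All libraries came from wild-type FvB mice whose atria had been removed, and no group carried a transgene or a treatment. Ventricles were sequenced once each at embryonic day 17 (E17) and at postnatal days (PN) 1, 10, 28 and 90. Cardiomyocytes, the contracting muscle cells, were sequenced in 2 neonatal libraries (PN1-2 and PN1) and once each at PN30 and PN67. Cardiac fibroblasts, the connective tissue cells, were sequenced in 2 neonatal libraries (PN1-3 and PN1-2) and once each at PN28 and PN60. Neonatal cardiomyocytes were enriched by preplating and those of PN30 and PN67 by Langendorff perfusion, so in these cells age and isolation method cannot be told apart. Preplating after enzymatic digestion gave the fibroblasts at all ages. Ventricle RNA was depleted of ribosomal RNA and made into libraries with another kit than the RNA of cells. The ventricle set and the cell set were also scaled separately, so levels set side by side across them are not tested.

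Potassium channels carry the outward currents that end the action potential of heart muscle and the inward rectifier currents that hold its resting potential. A channel is built from pore-forming subunits, and accessory subunits such as the KChIP and KCNE proteins change its gating, its kinetics and its transport to the membrane. In the mouse ventricle, whose action potential is short after maturation, a fast transient outward current through channels of Kcnd2 and Kcnd3 with the accessory subunit KChIP2 (Kcnip2) drives early repolarization. Delayed rectifiers, inward rectifiers and tandem-pore leak channels add further currents.

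Promoter windows were taken from RefSeq for members whose levels moved together or in opposite directions in the results below. A window held 250 bases before and 50 bases after a gene's annotated start, and 69 members had one. The windows of Kcnip2, Kcnd2 and Kcnj12 belong to genes that rose in cardiomyocytes with age, and that of Kcne4 to a gene that rose in fibroblasts and fell in cardiomyocytes. They are given 5′ to 3′ on the gene's own strand in build GRCm38.p6. Capitals mark each GGGCGG, the core letters of a GC box, which binds factors of the Sp family.
Kcnip2, chr19:45816014-45816313, minus strand: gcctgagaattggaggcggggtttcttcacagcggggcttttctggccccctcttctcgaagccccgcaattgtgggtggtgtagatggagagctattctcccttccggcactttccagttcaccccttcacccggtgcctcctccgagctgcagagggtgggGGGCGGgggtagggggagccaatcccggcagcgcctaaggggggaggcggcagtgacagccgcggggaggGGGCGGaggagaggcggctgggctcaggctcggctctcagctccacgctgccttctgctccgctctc
Kcnd2, chr6:21215096-21215395, plus strand: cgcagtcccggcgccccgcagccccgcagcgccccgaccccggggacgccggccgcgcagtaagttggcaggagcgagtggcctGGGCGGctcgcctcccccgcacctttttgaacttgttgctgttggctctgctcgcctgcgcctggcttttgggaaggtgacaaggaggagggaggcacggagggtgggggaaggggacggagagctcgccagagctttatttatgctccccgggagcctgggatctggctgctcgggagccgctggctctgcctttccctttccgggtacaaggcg
Kcnj12, chr11:61065554-61065853, plus strand: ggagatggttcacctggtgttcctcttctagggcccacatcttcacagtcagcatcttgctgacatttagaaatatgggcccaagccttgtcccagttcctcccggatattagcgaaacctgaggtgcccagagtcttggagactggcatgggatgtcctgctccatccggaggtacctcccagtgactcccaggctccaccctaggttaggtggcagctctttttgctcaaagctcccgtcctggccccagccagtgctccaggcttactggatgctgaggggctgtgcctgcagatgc
Kcne4, chr1:78816661-78816960, plus strand: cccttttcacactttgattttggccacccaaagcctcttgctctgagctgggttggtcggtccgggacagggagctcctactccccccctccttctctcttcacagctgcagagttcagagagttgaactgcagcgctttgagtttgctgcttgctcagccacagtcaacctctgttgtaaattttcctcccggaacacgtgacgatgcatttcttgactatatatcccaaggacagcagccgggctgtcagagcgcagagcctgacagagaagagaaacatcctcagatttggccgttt
The Kcnip2 window held GGGCGG at 2 places, starting at -87 and -17 from the gene's start, and the Kcnd2 window held it at -166. It was in neither the Kcnj12 nor the Kcne4 window on either strand. Listed Kcnj12 transcripts start at chr11:60836066 or chr11:60879306 in mm9, and only 1 window was searched for this gene. Over all 32851 windows of the table, 35.7% held GGGCGG on at least 1 strand, against 47.9% of the 94 windows of members, some of which have more than 1. The TATA box letters TATAAA were in 13.6% of all windows and in 5.3% of members' windows. CATTCC, a site of TEAD factors, was in 14.7% and 14.9%, and AGATAA, a site of GATA factors, in 11.2% and 4.3%. AGGTCA, a site of nuclear receptors, was in 16.3% and 6.4%, and the E-box form ACANNTGT in 7.4% and 8.5%. Motifs were searched on both strands, and a match describes letters only.

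The labels of the cell libraries were checked against markers. Each of the 8 cardiomyocyte and 7 fibroblast markers tested was higher in its own cell type (limma, adjusted p below 0.05), but neither preparation lacked the other's markers. Neonatal fibroblasts held the 8 cardiomyocyte markers at 6.4% to 10% of their neonatal cardiomyocyte level (median 9.32%), and later fibroblasts at 0.0223% to 0.0729%. Neonatal cardiomyocytes held the 7 fibroblast markers at 6.83% to 13.5% of their fibroblast level, and later cardiomyocytes at 4.52% to 24.1%. Summed markers of macrophages and leukocytes were 96.81 and 175 FPKM in neonatal fibroblasts and 923 and 737.8 FPKM at PN28 and PN60. The neonatal replicates differed by a median of 0.108 on the log2 scale in cardiomyocytes and 0.133 in fibroblasts over all genes tested, and by 0.178 and 0.097 over the members. The labels give the neonatal replicates of a cell type different age spans, but name no separate cultures or animals. A p-value here therefore measures the spread between these samples alone, and that spread may be technical. Read totals were not given in the files; the deposited coverage divided by FPKM, a measure of relative depth, had library medians from 19.5 to 32.8 and was highest in fibroblasts.

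In cardiomyocytes most tested channel genes were higher at PN30 and PN67 than in neonatal cells. The comparison asked how channel expression changed as the cells matured, and it pooled the later ages because neither had a replicate. Of 28 members with a mean of at least 1 FPKM over the 8 cell libraries, 19 rose, 6 fell and 3 did not pass the test (limma on log2(FPKM + 1), adjusted p below 0.05). Over all 12110 genes tested, 38% rose and 29.8% fell. The median change of the 28 members was 0.77 on the log2 scale and that of all genes 0.12. All 8 cardiomyocyte markers tested also rose in this comparison, with a median of 2.03. Their sum was 13140 and 11880 FPKM in neonatal cardiomyocytes and 44790 and 44250 FPKM at PN30 and PN67. What went with the markers in the rises of members was not tested. The members that fell were the KCNE subunit genes Kcne1, Kcne1l, Kcne3 and Kcne4 and the leak channel genes Kcnk5 and Kcnk6. A member could pass the level filter through its later libraries alone, so these counts describe the members that passed and not the family. With no filter on low values, 24 of 89 members rose, against 23.7% of all genes. The count of risers depended on scaling: with FPKM as deposited, 12 of 27 tested members rose and 6 fell, while 27.8% of all genes rose, 40.3% fell and the median of all genes moved to -0.19.

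Fibroblasts gave another picture, with 3 risers (Kcne4, Kcnk13 and Kcnt2), 11 fallers and 14 members that did not pass, against 18.2% and 22.9% of all genes that rose and fell. The median change was -0.44 for members and -0.06 for all genes. The 2 changes differed for 20 of the 28 members (limma contrast of the changes): the change was more positive in cardiomyocytes for 17 and in fibroblasts for 3, against 34.2% and 24.9% of all genes. Averaged over both ages, 18 members were higher in cardiomyocytes and 10 in fibroblasts, against 39.8% and 36.2% of all genes. The cardiomyocyte side included 5 of 5 tested inward rectifiers, 2 of 2 tested transient outward genes and 2 of 2 tested silent subunits. The fibroblast side included 4 of 5 tested tandem-pore genes. A gene could pass the level filter through the cell type where it was high, so these counts describe only the members that passed. With no filter on low values, 25 of 89 members were higher in cardiomyocytes and 20 in fibroblasts, against 27.8% and 24.1% of all genes. Fits of the comparisons share libraries, so their counts are not independent of each other.

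**Figure D1:**
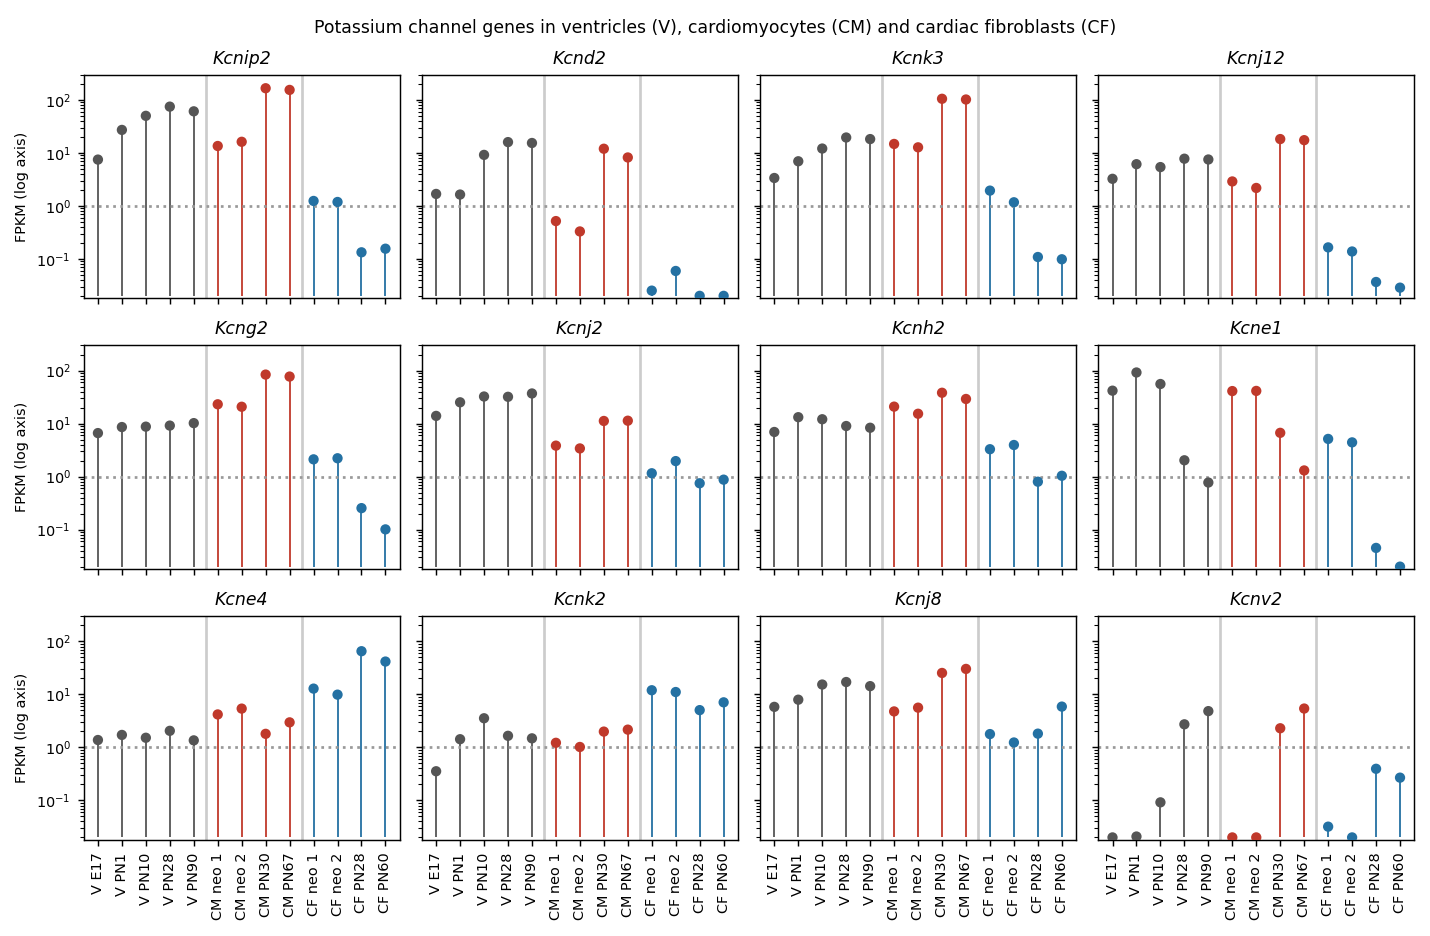
Levels of 12 members in each of the 13 libraries, in FPKM on a log axis, for ventricles (grey, V), cardiomyocytes (red, CM) and cardiac fibroblasts (blue, CF), with neo for neonatal; the dotted line is 1 FPKM, values below 0.02 FPKM are drawn at 0.02, and ventricles and cells were scaled separately. Kcnip2 reached 165 FPKM in PN30 cardiomyocytes and 0.133 FPKM in PN28 fibroblasts, while Kcne4 was highest in PN28 fibroblasts at 65.3 FPKM.

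**Figure D2:**
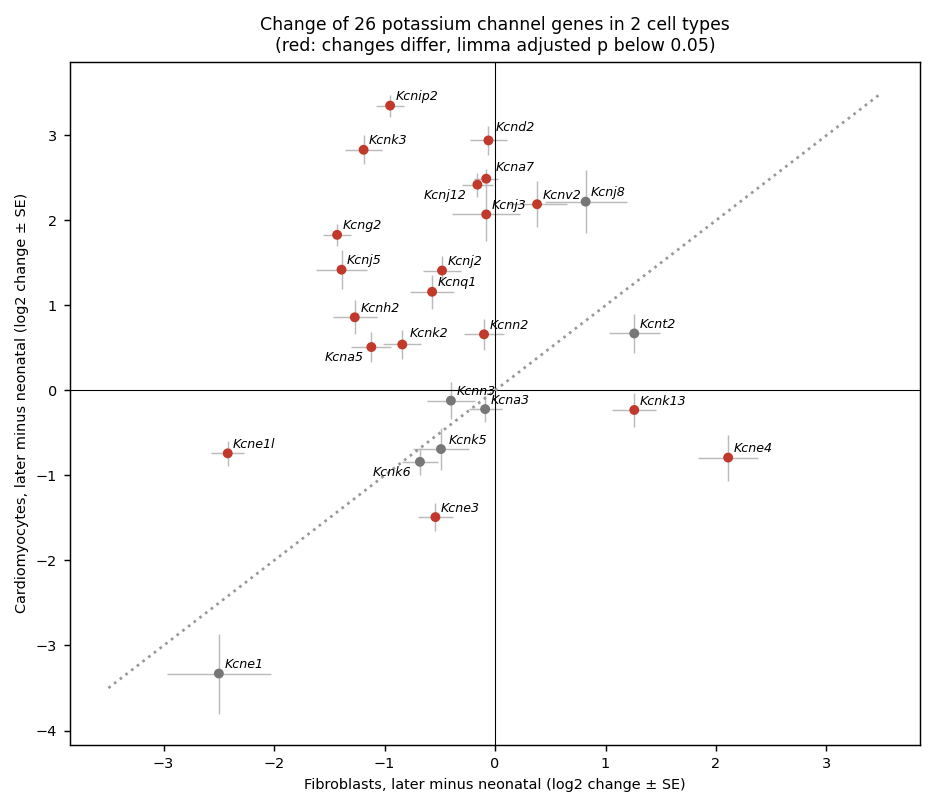
Change with age of 26 tested members in fibroblasts (x axis) and cardiomyocytes (y axis), as later minus neonatal log2(FPKM + 1) with limma standard errors as grey bars; red points mark members whose 2 changes differed, and the dotted diagonal marks equal change. Kcnip2 and Kcnk3 lie far above the diagonal at 3.35 ± 0.13 and 2.83 ± 0.17 in cardiomyocytes, Kcne4 lies far below it, and Kcne1 fell in both cell types.

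The transient outward channel and its KChIP subunit rose together. With 1 FPKM added before the log, Kcnip2 had the largest rise of the members tested, but with 0.1 FPKM added the changes of Kcnv2 (5.08), Kcnd2 (4.28) and Kcna7 (4.2) were above that of Kcnip2 (3.43), since the added value compresses low levels. Kcnip2 (chr19:45866329-45890551 in mm9, 10 listed transcripts) encodes KChIP2, a calcium-binding subunit that carries Kv4 pores to the membrane and slows their inactivation. Its level was 13.4 and 16.1 FPKM in the neonatal cardiomyocyte libraries (14.8 ± 1.91, mean ± SD, n = 2), 165 FPKM at PN30 and 154 FPKM at PN67. Both later libraries lay far above both neonatal ones, and the log2 change was 3.35 ± 0.13 (estimate ± SE; limma, adjusted p = 3.99e-06). Neonatal fibroblasts had 1.24 and 1.18 FPKM of Kcnip2, and PN28 and PN60 fibroblasts 0.133 and 0.155 FPKM. The fibroblast change was -0.95 ± 0.13 (adjusted p = 0.00152), and the 2 changes differed by 4.30 ± 0.19 (adjusted p = 8.89e-06). Neonatal fibroblasts held Kcnip2 at 8.16% of the neonatal cardiomyocyte level, inside the range of the cardiomyocyte markers, whose part in this fall was not tested.

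Kcnd2 (chr6:21165503-21679805), which encodes the pore Kv4.2, had 0.515 and 0.328 FPKM in neonatal cardiomyocytes, 11.9 FPKM at PN30 and 8.17 FPKM at PN67. The pore gene was thus under 1 FPKM in both neonatal libraries, where its subunit gene Kcnip2 was above 10 FPKM. The log2 change of Kcnd2 was 2.94 ± 0.17 (adjusted p = 1.25e-05), and all 4 fibroblast libraries listed it below 0.1 FPKM, at 0 in PN28. Kcnd3, the Kv4.3 pore, had 0.201 and 0.126 FPKM in neonatal and 2.93 and 2.902 FPKM in later cardiomyocytes. It missed the level filter in the cells, in part because transcripts with too little data were left out of its sum, so it was not tested there. Kcna4, the Kv1.4 pore of the slow transient outward current, went the other way in level, with 1.03 and 0.781 FPKM in neonatal cardiomyocytes against 0.4502 and 0.1598 FPKM later, and was too low to be tested in cells. Of the other KChIP genes, Kcnip3 peaked at 1.93 FPKM in PN67 cardiomyocytes, and Kcnip1 and Kcnip4 stayed below 1 FPKM in every library, as did the third Kv4 pore gene, Kcnd1.

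Delayed rectifier and other voltage-gated pore genes rose in cardiomyocytes for 6 of 7 tested and fell for 0, against 38% and 29.8% of all genes. Their median log2 change was 0.86, although rises such as those of Kcna5 and Kcnh2 did not pass with FPKM as deposited. Kcna7, a Kv1 pore known from skeletal muscle and heart, had 0.241 and 0.208 FPKM in neonatal cardiomyocytes against 5.58 and 6.15 FPKM later, a log2 change of 2.49 ± 0.11 (adjusted p = 5.51e-06). It was below 0.1 FPKM in every fibroblast library. Kcna5, the Kv1.5 pore of the ultrarapid delayed rectifier, changed less, from 6.72 and 7.19 to 9.01 and 11.9 FPKM in cardiomyocytes (0.51 ± 0.18, adjusted p = 0.0372). With FPKM as deposited the change of Kcna5 was 0.18 (adjusted p = 0.406), and it did not pass without PN67 or without any 1 of the 4 neonatal libraries. In fibroblasts Kcna5 fell from 4.04 and 3.63 FPKM to 0.963 and 1.53 FPKM (-1.12 ± 0.18, adjusted p = 0.00282), and its neonatal fibroblast mean was 55.1% of the cardiomyocyte mean, above the range of the cardiomyocyte markers.

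The pores of the slow and rapid delayed rectifiers, known for their part in human long QT syndrome, are Kcnq1 and Kcnh2. Kcnq1 (chr7:150293159-150612947) had 6.45 and 5.204 FPKM in neonatal cardiomyocytes and 17.4 and 11.6 FPKM at PN30 and PN67. Both later libraries were higher (1.16 ± 0.20, adjusted p = 0.00128), and fibroblasts had at most 0.552 FPKM. An antisense gene, Kcnq1ot1, lies within Kcnq1, and the sources used here do not state whether counting used strand, so reads of the 2 genes may not have been told apart. Kcnh2 (chr5:23825407-23857422), the ERG pore, had 20.9 and 15.3 FPKM in neonatal cardiomyocytes and 38.2 and 29.1 FPKM later (0.86 ± 0.20, adjusted p = 0.00609). Its rise was not past the threshold without the second neonatal cardiomyocyte library (adjusted p = 0.0542) or with FPKM as deposited (0.50, adjusted p = 0.0611). In fibroblasts Kcnh2 fell from 3.29 and 3.94 to 0.801 and 1.04 FPKM (-1.27 ± 0.20, adjusted p = 0.0024).

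Kcna3, the Kv1.3 pore best known from lymphocytes and macrophages, was a fibroblast gene by level. It had 2.79, 2.24, 1.92 and 2.71 FPKM in the fibroblast libraries and at most 0.328 FPKM in cardiomyocytes, a log2 difference between cell types of -1.52 ± 0.11 (adjusted p = 9.2e-06). Its fibroblast level did not pass the test with age (-0.09 ± 0.15), and summed macrophage and leukocyte markers were at most 175 FPKM in neonatal and at least 737.8 FPKM in later fibroblasts. The part of these cells in the level of Kcna3 was not tested.

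Silent subunits form no channel alone and act by joining the pores of other channels. Kcng2, the silent subunit Kv6.2, was the third most abundant member in later cardiomyocytes, with 23.1 and 20.8 FPKM in neonatal cells and 84.1 and 77.2 FPKM at PN30 and PN67 (1.83 ± 0.13, adjusted p = 2.56e-05). Fibroblasts went from 2.12 and 2.22 FPKM to 0.254 and 0.101 FPKM, and the neonatal fibroblast mean was 9.86% of the cardiomyocyte mean, inside the range of the cardiomyocyte markers. Only 1 transcript of 705 nucleotides is listed for Kcng2, so its FPKM rests on a short model. Kcnv2, the silent subunit Kv8.2 known from the retina, was near 0 in neonatal cardiomyocytes (0.00847 and 0.00554 FPKM) and had 2.29 FPKM at PN30 and 5.41 FPKM at PN67 (2.19 ± 0.27, adjusted p = 0.000273). With FPKM as deposited its mean fell under 1 FPKM and it was not tested in cells. The 7 other measured silent subunit genes, among them Kcnf1 and Kcns3, stayed below 1 FPKM everywhere.

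In cardiomyocytes the tested KCNE accessory subunits ran against most tested pores, although the pore genes Kcnk5 and Kcnk6 also fell. All 4 tested KCNE genes fell in cardiomyocytes (29.8% of all genes did), with a median log2 change of -1.14, and 3 of the 4 fell in fibroblasts (22.9%). Endothelial markers moved in the same direction, 8 of 9 lower in cardiomyocytes (median -1.01) and 6 of 9 lower in fibroblasts (median -0.98). Their sum was 1256 and 1462 FPKM in neonatal and 395.9 and 422.5 FPKM in later cardiomyocytes, and their part in the falls of KCNE genes was not tested. Kcne1 (chr16:92346246-92359713), which encodes minK, the partner of Kcnq1 in the slow delayed rectifier, had 41.1 and 41.4 FPKM in neonatal cardiomyocytes (41.2 ± 0.199, mean ± SD, n = 2). It was at 6.695 FPKM at PN30 and 1.31 FPKM at PN67, a log2 change of -3.33 ± 0.47 (adjusted p = 0.000523). Neonatal cardiomyocytes therefore had more Kcne1 than Kcnq1 per length, and later ones more Kcnq1 than Kcne1. In fibroblasts Kcne1 went from 5.14 and 4.42 FPKM to 0.0451 FPKM at PN28 and was listed at 0 at PN60 (-2.50 ± 0.47, adjusted p = 0.00508). The neonatal fibroblast mean was 11.6% of the cardiomyocyte mean, just above the range of the cardiomyocyte markers, and the 2 falls were not shown to differ (-0.83 ± 0.66, adjusted p = 0.311).

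Kcne3, a KCNE subunit best known from epithelia, had 2.88 and 2.88 FPKM in neonatal cardiomyocytes and 0.624 and 0.183 FPKM later (-1.49 ± 0.16, adjusted p = 0.000129). Its smaller fall in fibroblasts (-0.54 ± 0.16, adjusted p = 0.0301) did not pass without PN28, without any 1 of the 4 neonatal libraries or with no filter on low values. Kcne1l, the X-linked KCNE subunit also called Kcne5, was mainly a gene of neonatal fibroblasts. It had 7.91 and 8.63 FPKM there, 0.679 and 0.787 FPKM in later fibroblasts (-2.42 ± 0.15, adjusted p = 5.53e-05), and 1.21 and 0.731 FPKM in neonatal cardiomyocytes. The neonatal cardiomyocyte mean was 11.7% of that in fibroblasts, inside the range of the fibroblast markers.

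Kcne4 (chr1:78813524-78816599), a KCNE subunit known to inhibit Kv1 channels, was the most abundant member in later fibroblasts and moved in opposite directions in the cell types. It had 12.8 and 9.88 FPKM in neonatal fibroblasts (11.4 ± 2.098, mean ± SD, n = 2), 65.3 FPKM at PN28 and 41.6 FPKM at PN60, so both later libraries were above both neonatal ones. The change was 2.11 ± 0.27 in fibroblasts (adjusted p = 0.000934). In cardiomyocytes the values were 4.18 and 5.39 FPKM and then 1.801 and 2.97 FPKM (-0.79 ± 0.27, adjusted p = 0.0314). The fall in cardiomyocytes did not pass without PN30, without either neonatal cardiomyocyte library or with no filter on low values. The 2 changes differed by -2.90 ± 0.38 (adjusted p = 0.000546). Of the beta subunit genes of Kv1 channels, Kcnab1 peaked at 2.31 FPKM and Kcnab2 at 2.81 FPKM, both in ventricles, and neither was tested in cells. Kcne2, known as a partner of Kcnh2, stayed below 1 FPKM in every library.

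The level filter left 5 of 14 measured inward rectifier genes to test, and a gene could pass it through later cardiomyocytes alone. All 5 rose in cardiomyocytes, with a median log2 change of 2.07, and all 5 were higher there than in fibroblasts. Over all genes, 38% rose in cardiomyocytes and 39.8% were higher there, and the counts describe only the genes that passed the filter. Kcnj2 (chr11:110927478-110938135) and Kcnj12 (chr11:60836066-60884633) encode Kir2.1 and Kir2.2, the pores of the current that holds the resting potential of ventricular muscle. Kcnj12 had 2.88 and 2.17 FPKM in neonatal cardiomyocytes and 18.2 and 17.3 FPKM at PN30 and PN67 (2.42 ± 0.14, adjusted p = 1.04e-05). Kcnj2 went from 3.84 and 3.401 to 11.2 and 11.3 FPKM (1.41 ± 0.17, adjusted p = 0.000248). In level, Kcnj2 was above Kcnj12 in both neonatal libraries and below it in both later ones, although 1 or more low-data transcripts are missing from the sum of Kcnj12. Kcnj12 never passed 0.164 FPKM in fibroblasts, while Kcnj2 had 1.16 and 1.96 FPKM in neonatal and 0.748 and 0.875 FPKM in later fibroblasts.

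Kcnj3 and Kcnj5 encode Kir3.1 and Kir3.4, the pores of the acetylcholine-activated current, which is best known from atria and the sinus node. Kcnj3 had 3.37 and 1.01 FPKM in the neonatal cardiomyocyte libraries, the largest gap of any tested member between these replicates (1.12 on the log2 scale), and 11.3 and 11.5 FPKM later (2.07 ± 0.31, adjusted p = 0.000744). Kcnj5 had 11.2 and 6.85 FPKM in neonatal and 28.6 and 22 FPKM in later cardiomyocytes (1.42 ± 0.23, adjusted p = 0.00103). The first neonatal library, which was higher for both genes, also had more RNA of atrial markers, with Myl7 at 1405 against 415 FPKM and Nppa at 1023 against 232 FPKM. From neonatal to later cells the 5 other atrial markers fell (Myl7 -5.21 ± 0.68, adjusted p = 0.000361), in the opposite direction to Kcnj3 and Kcnj5. What atrial cells contributed to these values was not tested.

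Kcnj8 (chr6:142513459-142519876) encodes Kir6.1, an ATP-sensitive pore of vascular muscle and pericytes that pairs with the sulfonylurea receptor of Abcc9. It had 4.77 and 5.62 FPKM in neonatal cardiomyocytes and 25.4 and 30.2 FPKM later (2.22 ± 0.37, adjusted p = 0.00128). Abcc9 moved with it, from 25.98 and 25.3 to 91.9 and 104 FPKM (1.89 ± 0.36, adjusted p = 0.00238). Among smooth muscle and pericyte markers, Rgs5 went from 48.5 and 60.6 to 131 and 143 FPKM, while Acta2 went from 337 and 270.1 to 179 and 70.2 FPKM. Of the 10 markers of these cells, which include Kcnj8 and Abcc9, 4 rose and 3 fell in cardiomyocytes, and their part in the rise of Kcnj8 was not tested. The changes of Kcnj8 in the 2 cell types were not shown to differ (1.40 ± 0.53, adjusted p = 0.0529).

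Tandem-pore channels, which carry leak currents, were divided between the cell types. Kcnk3 (chr5:30890543-30927643), the acid-sensitive channel TASK-1, was the second most abundant member in later cardiomyocytes. Its level was 14.7 and 12.7 FPKM in neonatal cells (13.7 ± 1.42, mean ± SD, n = 2), 105 FPKM at PN30 and 101 FPKM at PN67 (2.83 ± 0.17, adjusted p = 1.3e-05). Neonatal fibroblasts had 1.94 and 1.17 FPKM, 11.3% of the cardiomyocyte mean, and later fibroblasts 0.108 and 0.09799 FPKM. The share of 11.3% lay just above the range of the cardiomyocyte markers, and the difference of the changes was 4.02 ± 0.24 (adjusted p = 2.11e-05).

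Kcnk2 (chr1:191031816-191167711), the stretch-activated channel TREK-1, was higher in fibroblasts, with 11.97 and 11.1 FPKM in neonatal and 5.05 and 7.08 FPKM in later libraries (-0.84 ± 0.17, adjusted p = 0.00647). Cardiomyocytes had 1.22 and 1.02 FPKM and then 1.99 and 2.16 FPKM (0.54 ± 0.17, adjusted p = 0.0225), a rise that did not pass with FPKM as deposited or without any 1 cardiomyocyte library. The cardiomyocyte mean of Kcnk2 was 9.71% of the fibroblast mean in neonatal and 34.2% in later libraries, against 6.83% to 13.5% and 4.52% to 24.1% for fibroblast markers. Kcnk13, the channel THIK-1, also known from microglia, rose in fibroblasts from 1.13 and 1.93 to 5.99 and 4.15 FPKM (1.26 ± 0.20, adjusted p = 0.00242). The macrophage marker Cd68 rose in the same libraries, from 12 and 21.7 to 115 and 72.9 FPKM (2.43 ± 0.31), as did 7 of 9 tested macrophage and leukocyte markers, and their part in the rise of Kcnk13 was not tested.

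Kcnk5, the alkaline-activated channel TASK-2, had 4.36 and 5.76 FPKM in neonatal fibroblasts and 2.29 and 4.54 FPKM later, which did not pass (-0.49 ± 0.25, adjusted p = 0.146). In cardiomyocytes its fall from 1.18 and 0.941 to 0.265 and 0.292 FPKM (-0.69 ± 0.25, adjusted p = 0.0387) was lost without any 1 cardiomyocyte library. Kcnk6, the channel TWIK-2, fell in both cell types, with log2 changes of -0.84 ± 0.16 in cardiomyocytes and -0.68 ± 0.16 in fibroblasts (adjusted p = 0.00217 and 0.0115). Its levels were 4.34 and 4.98 FPKM in neonatal cardiomyocytes, 7.62 and 8.44 FPKM in neonatal fibroblasts, and 2.11 to 5.32 FPKM over the later libraries. Without the second neonatal fibroblast library its fall in fibroblasts did not pass.

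Of channels opened by calcium or sodium, Kcnn2 and Kcnn3 encode small-conductance calcium-activated pores and lay on opposite sides. Kcnn2 was higher in cardiomyocytes, with 1.77 and 1.21 FPKM in neonatal and 3.54 and 2.35 FPKM in later libraries (0.66 ± 0.18, adjusted p = 0.0126). That rise did not pass with FPKM as deposited (adjusted p = 0.0825), without PN30 or without the second neonatal cardiomyocyte library. Kcnn3 had 3.12, 3.395, 1.52 and 3.15 FPKM in fibroblasts and at most 0.337 FPKM in cardiomyocytes (-1.55 ± 0.15 for cardiomyocytes minus fibroblasts, adjusted p = 5.19e-05).

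Kcnt2, a sodium-activated pore, was the single member that rose in both cell types, and after Kcne4 it was the most abundant member in both later fibroblast libraries. It went from 2.65 and 2.79 to 6.17 and 10.1 FPKM in fibroblasts (1.26 ± 0.23, adjusted p = 0.00484), and from 0.536 and 0.299 to 0.956 and 1.601 FPKM in cardiomyocytes (0.67 ± 0.23, adjusted p = 0.0344). The rise in cardiomyocytes did not pass with FPKM as deposited, with no filter on low values, without PN67 or without any 1 of the 4 neonatal libraries. Kcnma1, the large-conductance calcium-activated pore of smooth muscle, stayed below 1 FPKM in every library.

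Of the 28 members tested, 8 were higher in cardiomyocytes and fell in fibroblasts with age. Over all genes, 39.8% were higher in cardiomyocytes and 22.9% fell in fibroblasts, and the share that did both was not counted. In neonatal fibroblasts the 8 members stood at 8.16% to 55.1% of their neonatal cardiomyocyte level (median 15.8%). For cardiomyocyte markers, of which 8 of 8 fell in fibroblasts (median log2 change -4.44), the range was 6.4% to 10%. Besides Kcnip2, Kcng2, Kcne1 and Kcnk3, these members were Kcnh2 at 20%, Kcne3 at 21.8%, Kcnj5 at 21.9% and Kcna5 at 55.1%. How much of each fall came with the markers was not tested. The 10 members that were higher in fibroblasts stood in neonatal cardiomyocytes at 9.71% to 62% of their fibroblast level (median 18.2%), against 6.83% to 13.5% for fibroblast markers.

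**Figure D3:**
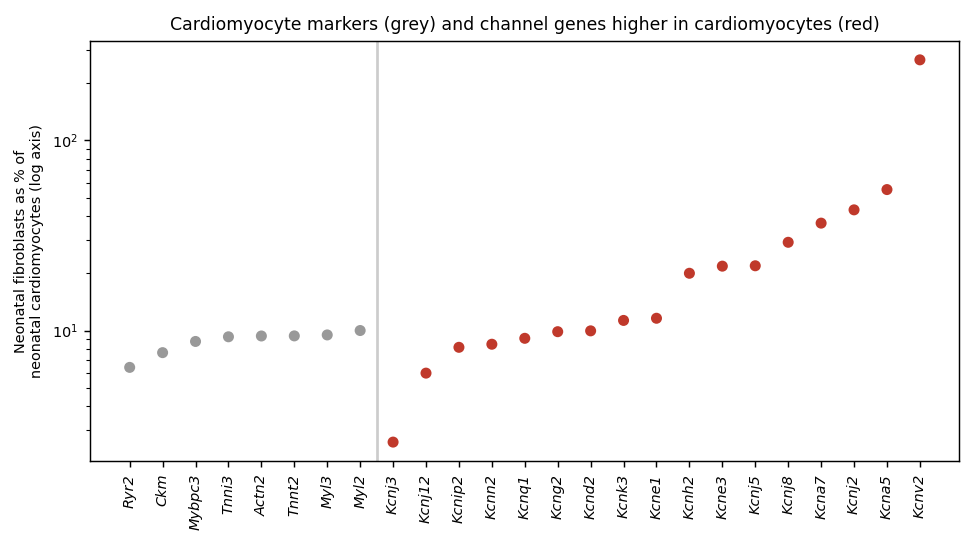
Mean level in neonatal fibroblasts as a percentage of the mean in neonatal cardiomyocytes (log axis), each from 2 libraries, for 8 cardiomyocyte markers (grey) and 17 members that were higher in cardiomyocytes (red). The markers lie between 6.4% and 10%, Kcnip2 at 8.16% and Kcng2 at 9.86% lie among them, and Kcna5 at 55.1% lies above; Kcnv2 was near 0 in both.

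Whole ventricles gave a second series of ages, tested as a slope per stage over E17, PN1, PN10, PN28 and PN90. In bulk tissue, fewer cells of a type and less RNA per cell cannot be told apart. Of 26 members tested, 11 rose, 4 fell and 11 did not pass, against 18% and 17.2% of all 11647 genes, and the median slope was 0.15 for members and -0.01 for all genes. With FPKM as deposited 8 of 27 rose and 5 fell, against 10.9% and 29.6% of all genes. Of the 11 risers, 10 had also risen in cardiomyocytes, where 38% of all genes rose, and the other, Kcnd3, was not tested there. How many of all genes rose in both series was not counted, so this overlap has no share of all genes beside it. With no filter on low values, 4 of 88 members rose and 5 fell, against 6.2% and 6.7% of all genes. Each stage was 1 library, and without E17 the main test had 4 members that rose and 1 that fell, against 4.9% and 4.5% of all genes.

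Kcnip2 had 7.45 FPKM at E17, 27.04 at PN1, 49.9 at PN10, 74.4 at PN28 and 60.6 at PN90, a slope of 0.72 ± 0.16 log2 units per stage (adjusted p = 0.0179). Kcnd2 was level at 1.68 and 1.63 FPKM at E17 and PN1 and stood at 9.14, 15.9 and 15.3 FPKM from PN10 on (0.79 ± 0.14, adjusted p = 0.0102). Kcnip2 was thus already higher at PN1 than at E17, before the step of Kcnd2 between PN1 and PN10. Kcnd3 went from 0.46 and 0.214 FPKM through 0.781 and 2.404 to 3.65 FPKM (0.48 ± 0.09, adjusted p = 0.0132). Kcna4 fell over the same stages, with 2.91, 1.804, 1.903, 0.855 and 0.638 FPKM (-0.31 ± 0.06, adjusted p = 0.0118). The Kv4 pore genes and Kcna4 therefore ran in opposite directions, and Kcnd2 was below Kcna4 at E17 and PN1 and above it from PN10 on.

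Kcnv2 was near 0 until PN10 (0.0119, 0.0208 and 0.0918 FPKM) and stood at 2.72 FPKM at PN28 and 4.83 FPKM at PN90 (0.69 ± 0.14, adjusted p = 0.0144). Kcna7 rose from 0.118 FPKM at E17 to 3.504 FPKM at PN90 (0.56 ± 0.08, adjusted p = 0.00674), and of the 15 called slopes it was the one that passed without each library in turn. Kcnk3 went from 3.35 through 6.92, 12.04 and 19.4 to 18.2 FPKM (0.56 ± 0.08, adjusted p = 0.00681). Kcnip2, Kcnd2 and Kcnk3 were thus highest at PN28, and Kcnv2, Kcna7 and Kcnd3 at PN90.

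Kcnj3 was flat from E17 to PN10 (7.77, 6.24 and 7.201 FPKM) and higher at PN28 and PN90 (23.2 and 33.4 FPKM; 0.57 ± 0.14, adjusted p = 0.0236). The atrial marker Myl7 went from 623 FPKM at E17 to 41.7 FPKM at PN90. Summed atrial markers, which include Kcnj3 and Kcnj5, were 3005, 785.1, 165.6, 640.1 and 381.7 FPKM from E17 to PN90, so they were higher at PN28 than at PN10. Of 7 atrial markers tested in ventricles, 1 (Kcnj3) rose, 2 fell and 4 did not pass. What atrial cells contributed to the slope of Kcnj3 was not tested. Kcnj2 was the most abundant inward rectifier gene in ventricles, with 13.97 FPKM at E17, 25.2 at PN1 and 32.03 to 37.03 FPKM from PN10 on (0.30 ± 0.07, adjusted p = 0.0246). Kcnj12 lay lower, between 3.23 FPKM at E17 and 7.74 FPKM at PN28 (0.23 ± 0.07, adjusted p = 0.0446). With FPKM as deposited the slopes of Kcnj12 (adjusted p = 0.164), Kcnj2 (0.0723) and Kcnj8 (0.0543) did not pass. The order of Kcnj2 over Kcnj12 in PN28 and PN90 ventricles was the reverse of that in PN30 and PN67 cardiomyocytes, across libraries of different kits and scaling.

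Kcne1 had the largest slope of any member tested. Its level was 41.8 FPKM at E17, 92.2 at PN1, 55.9 at PN10, 2.03 at PN28 and 0.773 at PN90 (-1.41 ± 0.36, adjusted p = 0.0287). The level rose from E17 to PN1 and fell between PN10 and PN28, so a straight slope describes it poorly. At PN1 Kcne1 was the most abundant member in ventricles. Kcne3 (-0.38 ± 0.10) and Kcnq5 (-0.38 ± 0.06), an M-current pore, also fell (adjusted p = 0.0338 and 0.00768). Kcnq1 was between 0.429 and 0.825 FPKM in ventricles and was not tested there, although cardiomyocytes had 5.204 to 17.4 FPKM.

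The remaining called members were Kcnt2 (0.37 ± 0.09, adjusted p = 0.0212) and Kcnj8 (0.34 ± 0.09, adjusted p = 0.0334). Rgs5, a pericyte marker, went from 40.2 FPKM at E17 to 341 FPKM at PN10 and 292 FPKM at PN90. Acta2 went from 573.9 FPKM at E17 to 155.6 FPKM at PN90. Of 9 smooth muscle and pericyte markers tested in ventricles, which include Kcnj8, 3 rose, 1 fell and 5 did not pass. The part of these cells in the slope of Kcnj8 was not tested.

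**Figure D4:**
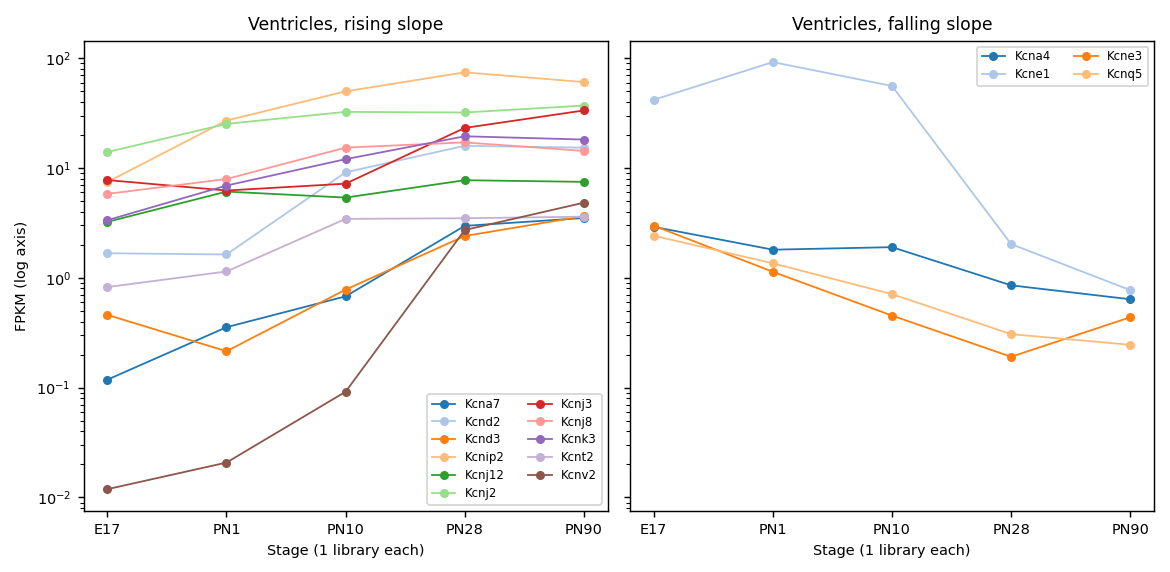
FPKM (log axis) of the 11 members with a rising slope (left) and the 4 with a falling slope (right) in ventricles by stage, with 1 library per stage and lines that join the stages of a gene. Kcnv2 starts at 0.0119 FPKM and ends at 4.83 FPKM, and Kcne1 peaks at 92.2 FPKM at PN1 before it drops to 2.03 FPKM at PN28.

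Transcripts of a gene could be compared only where the gene was well measured in every cell library, which held for 5 isoforms of 2 members, Kcnk2 among them. Calls required both an adjusted p below 0.05 and a shift of 10 or more percentage points in the transcript's share of the gene's FPKM. In cardiomyocytes 2 of the 5 were called, against 18% of 11224 isoforms of all genes, and in fibroblasts 1 of 5, against 3.78%. The 2 cardiomyocyte calls belong to 1 gene, Kcnk2, whose 2 tested isoforms have shares that mirror each other, so they amount to 1 result. The longer Kcnk2 transcript, Kcnk2-202, made up 57.2% and 59.8% of Kcnk2 in neonatal cardiomyocytes and 70.05% and 74.5% at PN30 and PN67, a gain of 13.7 percentage points (adjusted p = 0.00817), and Kcnk2-201 lost the same share (adjusted p = 0.00864). In fibroblasts, where Kcnk2 was higher, Kcnk2-202 stayed between 60.5% and 63.2%. These calls depended on single libraries: without PN67 or the first neonatal cardiomyocyte library no cardiomyocyte isoform of a member was called, and the fibroblast call was lost without PN28 or without any 1 of the 4 neonatal libraries.

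Members near 0 in fibroblasts were left out of that comparison, so the 4 cardiomyocyte libraries were also fitted alone, an alternative chosen after seeing the data. Of 10 isoforms of 4 members, 1 was called, against 19.9% of 10969 isoforms. It was Kcnh2-202, a transcript of 3193 nucleotides that lacks the 5′ part of Kcnh2 and starts at chr5:23835409, inside the span of the longer Kcnh2-201 of 4221 nucleotides, which starts at chr5:23857422 (minus strand, mm9). Short Kcnh2 transcripts of this kind encode the ERG1b subunit, which closes faster than ERG1a. The share of Kcnh2-202 was 24.6% and 27.4% in neonatal cardiomyocytes, 44.3% at PN30 and 38.9% at PN67, a gain of 15.6 points (log2 ratio 0.94 ± 0.17, adjusted p = 0.0105). In ventricles, where isoform shares were not tested, it was 5.7% at E17, 11.4% at PN1, 19.7% at PN10, 25.0% at PN28 and 39.6% at PN90, higher at each later stage. In the cardiomyocyte fit the share of Kcnh2-201 moved by -9.2 points, which did not pass (limma, adjusted p = 0.0991). In ventricles it went from 84.4% at E17 to 54.7% at PN90. The summed Kcnh2 level in ventricles showed no such order, with 6.95, 13.2, 12.1, 9.002 and 8.35 FPKM.

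**Figure D5:**
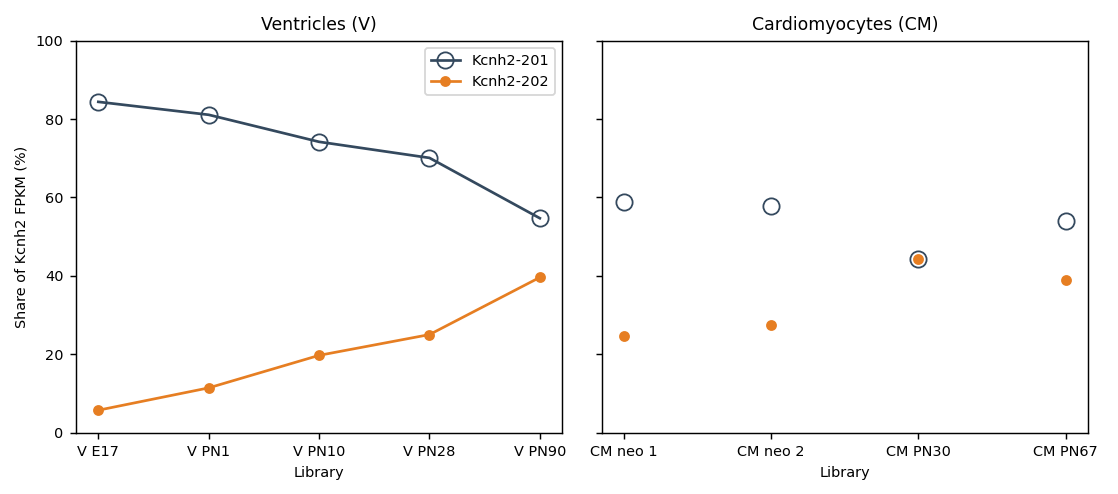
Share of the long transcript Kcnh2-201 (open dark circles) and the short transcript Kcnh2-202 (filled orange circles) in the summed FPKM of Kcnh2, in percent, in 5 ventricle libraries (left, joined by lines) and 4 cardiomyocyte libraries (right). Kcnh2-202 goes from 5.7% at E17 to 39.6% at PN90 in ventricles, and in PN30 cardiomyocytes both transcripts stand at 44.3%.

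For Kcnip2, 3 isoforms were tested in the cardiomyocyte libraries and 0 were called; the share of Kcnip2-208 passed the test (adjusted p = 0.00995) but moved by less than 10 points. Kcnip2-202 and Kcnip2-209 together held most of its FPKM, at 37.2% and 43.8% in the first and 41.7% and 41.1% in the second neonatal library. In ventricles Kcnip2-209 had 15.3% at E17, 28.8% at PN1, 41.2% at PN10, 49.5% at PN28 and 33.6% at PN90. Transcripts of a gene that overlap are told apart by an estimate, so shares of similar transcripts are uncertain.

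Partner genes outside the Kcn symbols were read for comparison: receptors, anchors and transcription factors known to act on potassium channels. In cardiomyocytes 9 of 13 tested partners rose and 2 fell (median 0.85), against 38% and 29.8% of all genes. Besides Abcc9, the risers included the anchors Akap9, Ank2, Ank3 and Dlg1 and the transcription factors Irx3, Irx4 and Irx5, and the fallers were Dlg4 and the ubiquitin ligase Nedd4l. Irx5, a repressor of Kcnd2 known to set its gradient across the ventricular wall, had 1.55 and 1.601 FPKM in neonatal and 2.304 and 2.87 FPKM in later cardiomyocytes (0.47 ± 0.18, adjusted p = 0.0499). Dpp6 and Dpp10, membrane partners of Kv4 pores, stayed below 1 FPKM in every library. Lrrc55, a subunit of large-conductance calcium-activated channels, and Irx3 were the 2 of 13 that rose in fibroblasts, and Ank3, Cav3, Irx4 and Irx5 fell there. Over all genes, 18.2% rose and 22.9% fell in fibroblasts. In ventricles 2 of 11 partners rose, Ank2 and Dlg1, against 18% of all genes.

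Pumps and cotransporters that carry potassium rose for 7 of 10 tested in cardiomyocytes and fell for 1 (median 0.78), against 38% and 29.8% of all genes. Fxyd1, a regulator of the sodium-potassium pump, went from 159 and 135 FPKM to 572 and 566 FPKM (1.95 ± 0.21, adjusted p = 0.000124). The pump's beta subunit gene Atp1b1 and the cotransporter genes Slc12a4 and Slc12a7 also rose, and the beta subunit gene Atp1b3 fell. In ventricles 3 of 10 had rising slopes, among them Fxyd1 and Slc12a7, against 18% of all genes.

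Of the 50 members below 1 deposited FPKM in every library, 22 stayed below 0.1 FPKM and 3 (Kcna10, Kcnk16 and Kcnk9) were listed at 0 throughout. By role they were 16 of 26 voltage-gated pores of the delayed rectifier and related kinds, 9 of 14 tandem-pore genes, 7 of 9 silent subunits, 7 of 12 calcium- or sodium-activated channels and subunits, 6 of 14 inward rectifiers, 3 of 8 transient outward or KChIP genes and 2 of 9 other accessory genes. The threshold fell between Kcna1, which peaked at 0.948 FPKM in PN28 ventricles, and Kcnj14, which peaked at 1.08 FPKM in neonatal fibroblasts, both in deposited values before scaling. Neuronal and Schwann cell markers, which could bring channel genes of nerves, summed to at most 5.652 FPKM in any library. Of the 42 members at or above 1 deposited FPKM in a library, 14 were too low on average to be tested in cells, among them Kcna4, Kcnd3, Kcnq5 and Kcnh7, which had 1.81 FPKM in E17 ventricles and at most 0.564 FPKM in any other library.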

How the data were processed

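The authors deposited 1 table per library with the FPKM, its bounds and the coverage of each of 94696 transcripts; per the submitters' processing notes, reads were aligned to mm9 with TopHat2 2.0.5 and quantified with Cufflinks 2.1.1. The deposited coverage was used to compare depth only, since the tables hold no read counts. Which annotation release was used is not given in these sources; 82379 transcripts (87.0%) matched GENCODE M21 and took their gene symbols from it. FPKM was summed per gene over transcripts of at least 200 nucleotides, transcripts marked as low data were left out (5 members have such transcripts), and genes with a failed estimate were left out (90 in cells, 64 in ventricles). Libraries were scaled by median ratios, separately in 8 cell and 5 ventricle libraries. Genes with a mean of at least 1 FPKM were tested on log2(FPKM + 1), which understates changes of low genes, with limma 3.58.1 (trend, Benjamini-Hochberg over all genes, threshold 0.05) in R 4.3.3. The cell fit had 4 classes and 4 residual degrees of freedom, and the ventricle slope had 3. Isoforms were tested as log2((isoform + 0.5)/(other isoforms + 0.5)) in genes with a mean of at least 5 FPKM and at least 1 FPKM in every library.

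Scripts were tested on simulated data. Some members and other genes enter the counts but are not reported here by name. Values per library are scaled FPKM unless called deposited; counts of members above or below 1 FPKM use deposited values. Named members are Kcnip2, Kcnd2, Kcnj12, Kcnk3, the 12 largest called rises and falls per comparison and members of at least 10 deposited FPKM; other members (among them Kcnn2, Kcnn3, Kcna3 and Kcnh7) and the markers Myl7, Nppa, Rgs5, Acta2 and Cd68 were named after their values were seen. The members and lists were chosen with earlier results of these data known. Alternatives were another pseudocount, no filter, other scalings, other transcript sets and each library left out.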

Additional observations from a re-analysis of the deposited data

Results flagged for a closer look

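For 20 of the 28 members tested in cells, the change from neonatal to later libraries differed between cardiomyocytes and fibroblasts by the test of the difference itself (limma contrast, adjusted p below 0.05, 8 libraries). Over all genes tested, 59.1% differed. With no filter on low values, the difference was positive for 21 of 89 members and negative for 10, against 20.3% and 14.4% of all genes. Those of the 20 members that are reported by name follow, and each value is the log2 change in cardiomyocytes minus that in fibroblasts. The accessory and silent subunit genes Kcnip2 (4.3) and Kcng2 (3.26) and the leak channel gene Kcnk3 (4.02) had the largest positive differences. Among voltage-gated pores the differences were 3 for Kcnd2, 2.56 for Kcna7, 2.13 for Kcnh2, 1.73 for Kcnq1 and 1.63 for Kcna5. Among inward rectifiers they were 2.81 for Kcnj5, 2.57 for Kcnj12, 2.14 for Kcnj3 and 1.89 for Kcnj2. The silent subunit gene Kcnv2 differed by 1.8, the leak channel gene Kcnk2 by 1.38 and the calcium-activated pore gene Kcnn2 by 0.76. The difference of Kcnn2 did not pass with FPKM as deposited (0.53, adjusted p = 0.113) or without any 1 of 5 libraries. Kcne1l fell less in cardiomyocytes than in fibroblasts, a difference of 1.68. The difference was negative for Kcne4 (-2.9), Kcnk13 (-1.5) and Kcne3 (-0.95), the last of which did not pass with a pseudocount of 0.1 (adjusted p = 0.182). Cardiomyocyte markers had a median difference of 6.59 over 8 genes in the same contrast, and what they contributed to these values was not tested. No explanation was tested for any of these differences.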

How the results depend on the processing

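No called change of a member reversed under any alternative run. With no filter on low values, 89 members entered the cell fit and the shares came close to those of all genes in cardiomyocytes: 24 rose (23.7% of all genes did) in place of 19 of 28, and 15 fell (20.2%) in place of 6. In fibroblasts 9 rose (10.1%) in place of 3 and 17 fell (13.4%) in place of 11. There were 21 higher differences of the changes (20.3%) in place of 17, and 10 lower ones (14.4%) in place of 3. In the comparison of cell types, 25 members were higher in cardiomyocytes than in fibroblasts (27.8%) in place of 18, and 20 were lower (24.1%) in place of 10. Of 88 members in ventricles, 4 rose (6.2%) in place of 11. The number that rose in cardiomyocytes was 12 in place of 19 on deposited FPKM (27.8% of all genes rose). It was also 12 once mitochondrial genes were taken out (24.9%), and the latter scaling gave 7 risers in ventricles (10.9%). Under these 2 scalings the median over all genes in cardiomyocytes went from 0.12 to -0.19 and -0.28. When each library was left out in turn, 4 to 11 members rose and 1 to 4 fell in ventricles, and 0 to 2 isoforms were called in cardiomyocytes and 0 to 1 in fibroblasts. Over the same ventricle runs, 4.9% to 20.2% of all genes rose and 4.5% to 19.6% fell. With cardiomyocyte libraries alone, chosen after seeing the data, 1 isoform was called. The cause of these shifts was not tested beyond the number of members entered. No paired analysis was possible because the labels give no replicate numbers. Later ages and ventricle stages had 1 library each, members near 1 FPKM are poorly measured, and log2(FPKM + 1) compresses them.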
